A study of Homo sapiens with 8 samples.

Results

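By the array's gene names, the 9 genes described here carried probes that moved in opposite directions between cells expressing TIA1 and cells expressing HuR. They were ATMIN, CNTLN, ETNK1, FADS2, HIGD1A, ICMT, KIF1B, MACROD2 and STK32C. For ATMIN the rising probes lie on another chromosome than its NM_015251 probes, which did not rise. The STK32C probe that rose most is described as a predicted non-coding transcript of another name, while a second one, for NM_173575, also rose. The genes were chosen by measured values of that comparison, so the opposition itself is a description and no test of it is given. They were 9 of 36337 gene names on the array, and every probe that the array assigns to them was taken, 31 probes in all.

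The cells were HEK293, a human embryonic kidney line, in its Flp-In T-REx form (FT293). Each line carried 1 tetracycline-inducible transgene at a single recombination site: GFP alone (the control), GFP-HuR, GFP-TIA1 or GFP-TIAR, and all 4 lines were treated with tetracycline. Each line was hybridised to 2 one-colour Agilent arrays, 8 arrays in all, and the labels do not say whether the 2 came from separate cultures, so the errors cover the spread between arrays, which may be technical. Each line is thus 1 isogenic line in 1 cell background, and the endogenous genes for TIA1, TIAR and HuR were left in place. The paper reports that expressing TIA1 or TIAR depleted the endogenous TIA proteins, and that expressing HuR lowered endogenous HuR protein.

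TIA1 and TIAR are RNA-binding proteins that recognise uridine-rich stretches. They promote the use of weak splice donor sites in the nucleus, and repress translation of messages that carry such stretches in their 3′ ends. HuR binds AU-rich and uridine-rich elements and is best known for stabilising messages, and all of these proteins can also influence where a transcript is spliced or polyadenylated. One gene can thereby give rise to transcripts that end at different exons or at different poly(A) sites, and a short probe reports only the forms that contain its own stretch of bases.

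Signals are log2 intensities relative to the 75th percentile of the same array, so a value of 0 is an array's 75th percentile and negative values are dimmer. A probe was called when limma gave an adjusted p under 0.05 and the change was at least 2-fold. On every array the lowest signal that the scanner software called well above background lay between -6.12 and -5.18. By the same software call 30 of the 31 cleared the background on each of the 8 arrays, and all 31 were tested. Local background averaged 90.0 units of intensity around the spots of the first GFP array and 37.4 to 43.5 on the rest, and the GFP pair differed by 2-fold or more at 15.7% of the probes above background on both, against 0.455% for the HuR pair, 1.13% for the TIA1 pair and 1.45% for the TIAR pair. Among the 31 probes the GFP pair differed by 2-fold or more at 6, the HuR pair at 0, the TIA1 pair at 1 and the TIAR pair at 1. Of 6 genes that mark HEK293 cells, 5 were well above background on all 7 arrays other than the first GFP array. Of 3 blood-cell and 2 hepatocyte markers, only PTPRC was, through 1 of its 5 probes. The TIAL1 probe for NM_001033925, which detects TIAR, read 4.87 and 4.98 on the TIAR arrays and between 1.63 and 2.52 on the others. The other TIAL1 probe, for ENST00000369086, went the other way. It read -4.12 and -3.85 on the TIAR arrays and -4.36 and -3.98 on the TIA1 arrays, against -3.70 to -3.45 on the GFP and HuR arrays. No TIA1 or ELAVL1 (HuR) probe was highest in the line named for it. One of the 2 TIA1 probes read -1.77 to -0.94 on the TIA1 and TIAR arrays, against -0.05 to 0.17 on the GFP and HuR arrays, and the other was likewise lower on every TIA1 and TIAR array, at -1.26 to -0.94 against -0.74 to -0.32. Whether those probes lie within the expressed sequences was not tested, so the names of the TIA1 and HuR lines rest on the labels. These conflict for the second TIA1 array, whose source name reads GFP-TIA2 while its title reads GFP-TIA1. By the array positions in the deposited names, the GFP and TIA1 arrays shared 1 row of the slide and the HuR and TIAR arrays the other. Slide row and line cannot be told apart in TIA1 versus HuR, while TIAR versus HuR lay within a row.

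Each probe is a 60-base oligonucleotide, printed in the sense of the transcript. The stretches below are the last 30 bases, 5′ to 3′, of the probe that rose most and the probe that fell most in TIA1 versus HuR, for the 5 genes whose rising probe holds AATAAA or ATTAAA, the hexamers that commonly precede a poly(A) site, and for KIF1B, whose pair holds neither. For ETNK1 the rising probe alone is shown. Capitals mark the hexamer, and coordinates are those of the whole probe on hg19, as the deposited files give them.
ETNK1, rising, chr12:22797290-22797349, plus strand: ctATTAAAattttattaatttggttaacaa
FADS2, rising, chr11:61593923-61593982, plus strand: tgttcATTAAAgttatctatatggtatgtt
FADS2, falling, chr11:61634754-61634813, plus strand: cacccctacattttttgaAATAAAataagg
HIGD1A, rising, chr3:42824403-42824462, minus strand: ttctttggaatATTAAAgtattgctataga
HIGD1A, falling, chr3:42826540-42826599, minus strand: aactaggtcattcagggaagtcaagttaac
STK32C, rising, chr10:134143807-134143866, minus strand: cattccagtatctcttttcacaAATAAAac
STK32C, falling, chr10:134137669-134137728, minus strand: aacttgtctcagtacccagggagactcaga
ATMIN, rising, chr3:195672514-195672573, plus strand: ctgcagcggaagtaaatgAATAAAtgtttt
ATMIN, falling, chr16:81080715-81080774, plus strand: agcatgtaataatacaagaactgtttcccc
KIF1B, rising, chr1:10364547-10364606, plus strand: aatgcagccacttcctatcagaagcagact
KIF1B, falling, chr1:10441250-10441309, plus strand: agtacctgtctgttgagatttcaagtctct

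The hexamers were a feature that the choice of genes did not use. AATAAA or ATTAAA occurred on the probe strand in 5 of the 9 rising probes and in 2 of the 9 falling probes, those of FADS2, shown above, and of ETNK1. Over all 50599 probes of the array 11.2% held one of the 2 hexamers, over the 28717 tested probes 10.8%, over probes called higher in TIA1 15.4% and over probes called lower 10.6%. The reverse complement, TTTATT or TTTAAT, was present in 6.19% of all probes, in 1 of the 9 rising and in 1 of the 9 falling probes. Among all 31 member probes 7 (22.6%) held one of the 2 hexamers. The 5 rising probes include the one named ATMIN on chromosome 3 and the STK32C one described as non-coding. Median AT content was 65% for the rising and for the falling probes, against 56.7% for all probes of the array. The counts were not adjusted for it, so no excess is read from them. These are matches of letters, and use of a poly(A) site was not measured.

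In TIA1 versus HuR, 12 of the 31 probes were called higher, at least 1 in each gene, where 8.51% of all tested probes were. A further 11 were called lower, again at least 1 in each gene, against 4.9% of all tested probes. Nothing is read from these counts, because they are what the genes were chosen on. Of 5359 genes with 2 or more tested probes, 17 (0.317%) had probes called both ways, and the 9 genes are among them with 8 others. Without the first or the second HuR array 3 of the 9, FADS2, KIF1B and STK32C, were still called both ways, and the member probes called numbered 13 and 14 in place of 23. In bulk RNA a change in every cell and a larger change in some cells cannot be told apart. ICMT was the member nearest to the threshold, at 1.17 and -1.03, and HIGD1A followed at 1.08 and -1.06. Just outside lay DNHD1 at 1.26 and -0.99.

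In TIAR versus HuR, which shares the HuR arrays with that comparison, 7 of the 31 probes were called higher, in 4 genes, against 7.07% of all tested probes, and 5 were called lower, in 4 genes, against 3% of all. Only KIF1B had probes called both ways, as did 7 genes (0.13%) of 5400 with 2 or more tested probes. Without the first HuR array 1 of the 31 was called in TIAR versus HuR, and without the second 0, where 25 had an unadjusted limma p under 0.05 with both, as did 45.4% of all tested probes. The genes were chosen on these same HuR arrays, which favours high counts in TIAR versus HuR too, so nothing is read from these counts. The 2 comparisons with HuR are given side by side below and are not independent of each other.

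**Figure D1:**
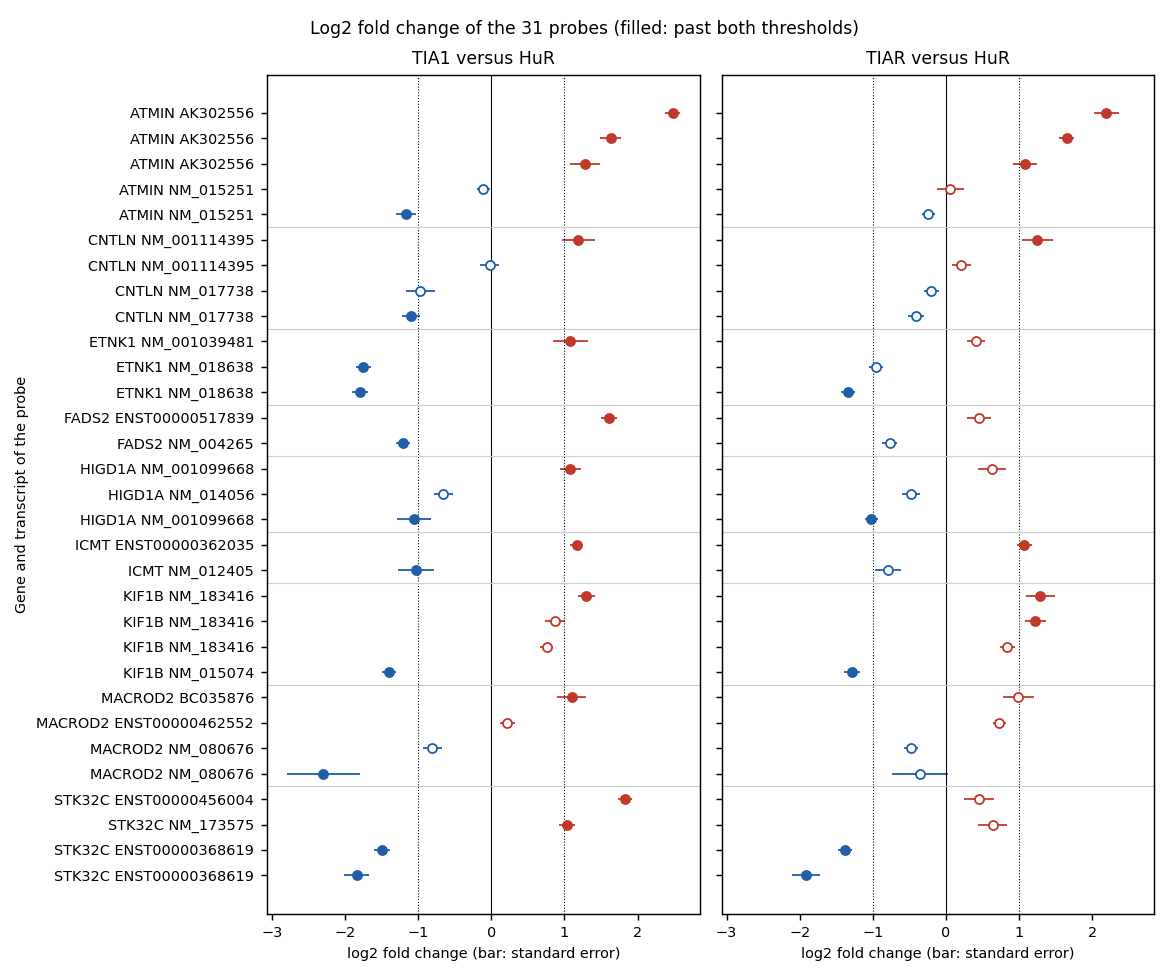
Log2 fold changes of the 31 probes in TIA1 versus HuR (left) and TIAR versus HuR (right), each labelled by gene and transcript, with standard errors as bars; dotted lines mark 2-fold and filled points passed both thresholds. In the left panel each gene has a filled point on either side of 0, the highest at 2.48 for ATMIN, and in the right panel KIF1B alone does. The lowest point on the left, for MACROD2, rests on TIA1 signals not well above background. It is read only as at least 2.39-fold, a bound of the main processing that depends on the background correction.

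A first group, of 3 members, holds enzymes of lipid and membrane chemistry. ETNK1, ethanolamine kinase, phosphorylates ethanolamine at the entry to the pathway that makes phosphatidylethanolamine. Its probes separated by transcript variant. The probe for variant 2 (NM_001039481) read -2.99 and -2.80 on the HuR arrays, -2.14 and -1.51 on the TIA1 arrays, -2.44 and -2.54 on the TIAR arrays and -2.22 and -2.39 on the GFP arrays. It was higher on both TIA1 arrays than on any HuR, TIAR or GFP array. The probe for variant 1 (NM_018638) furthest downstream read 2.08 and 2.20 on the HuR arrays, 0.27 and 0.41 on the TIA1 arrays, 0.79 and 0.80 on the TIAR arrays and 1.11 and 1.44 on the GFP arrays, lowest in TIA1 and highest in HuR with no overlap between any of the lines. The other variant 1 probe, at chr12:22826525-22826584, gave the same order of lines, with -0.90 and -0.78 in TIA1 and 0.89 and 0.94 in HuR. In TIA1 versus HuR the variant 2 probe changed by 1.08 (SE 0.24) on the log2 scale and the variant 1 probes by -1.79 (SE 0.11) and -1.75 (SE 0.10). In TIAR versus HuR the same values were 0.41, -1.34 and -0.96, of which the second was called.

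FADS2, the delta-6 desaturase of polyunsaturated fatty acid synthesis, had 2 probes 40.8 kb apart. The upstream one lies at ENST00000517839 and read -2.59 and -2.77 on the HuR arrays, -1.12 and -1.03 on the TIA1 arrays, -2.39 and -2.07 on the TIAR arrays and -2.38 and -2.85 on the GFP arrays. Only the TIA1 arrays stood above the rest. The downstream one, for NM_004265, read 3.84 and 3.76 on the HuR arrays, 2.52 and 2.66 on the TIA1 arrays, 3.06 and 2.99 on the TIAR arrays and 3.24 and 3.71 on the GFP arrays, with the TIA1 arrays lowest, the TIAR arrays next and HuR highest. The changes in TIA1 versus HuR were 1.61 (SE 0.11) for the upstream probe and -1.21 (SE 0.10) for the downstream probe, and in TIAR versus HuR 0.45 and -0.77, neither of them called. The upstream probe was one of 2 among the 31 called in TIAR versus TIA1, where it was lower by 2.22-fold. In that comparison 1.11% of all tested probes were called lower and 1.25% higher, and none of the 31 was called higher.

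ICMT methylates the prenylated cysteine at the end of CAAX proteins such as the Ras family. Its upstream probe, at chr1:6294505-6294564 on the minus strand (ENST00000362035), read -1.93 and -1.97 on the HuR arrays, -0.82 and -0.74 on the TIA1 arrays, -0.93 and -0.84 on the TIAR arrays and -1.72 and -1.77 on the GFP arrays. Both TIA1 and TIAR arrays lay above both HuR and both GFP arrays. The downstream probe, at chr1:6281316-6281375 (NM_012405), read -3.35 and -3.21 on the HuR arrays, -4.65 and -3.97 on the TIA1 arrays, -3.87 and -4.28 on the TIAR arrays and -3.67 and -3.57 on the GFP arrays. Here the TIA1 pair was 0.68 apart, and both it and the TIAR pair lay below the HuR and GFP arrays. The upstream probe changed by 1.17 (SE 0.09) in TIA1 and 1.07 (SE 0.10) in TIAR against HuR, both called. The downstream probe changed by -1.03 (SE 0.25), called, and -0.79 (SE 0.18), not called. The first of these 2 values was -0.33 with normexp background correction, and -0.69 without the first TIA1 array.

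HIGD1A, a mitochondrial inner membrane protein induced by low oxygen, differed from the other genes in its annotation. All 3 of its probes are listed for the same 3 RefSeq variants, so the annotation does not separate the probe above 0 from those below it. The most downstream probe read -5.02 and -4.72 on the HuR arrays, -3.75 and -3.83 on the TIA1 arrays, -4.05 and -4.45 on the TIAR arrays and -3.88 and -3.85 on the GFP arrays, lowest in HuR. The probe 2.14 kb upstream of it read 1.76 and 1.82 on the HuR arrays, 0.43 and 1.04 on the TIA1 arrays, 0.78 and 0.75 on the TIAR arrays and 0.79 and 1.37 on the GFP arrays, highest in HuR. A further probe, at chr3:42826745-42826804, read between -0.66 and -0.48 against HuR in the 2 lines and was not called. The downstream probe changed by 1.08 (SE 0.14) in TIA1 versus HuR and by 0.63 in TIAR versus HuR, and the probe upstream of it by -1.06 (SE 0.23) and -1.02. The value of 1.08 was 0.43 with the authors' values and 0.39 with normexp and quantile normalisation, neither of them called. The GFP arrays resembled the TIA1 arrays at the downstream probe, -3.88 and -3.85 against -3.75 and -3.83, and the change in HuR versus GFP was -1.01.

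**Figure D2:**
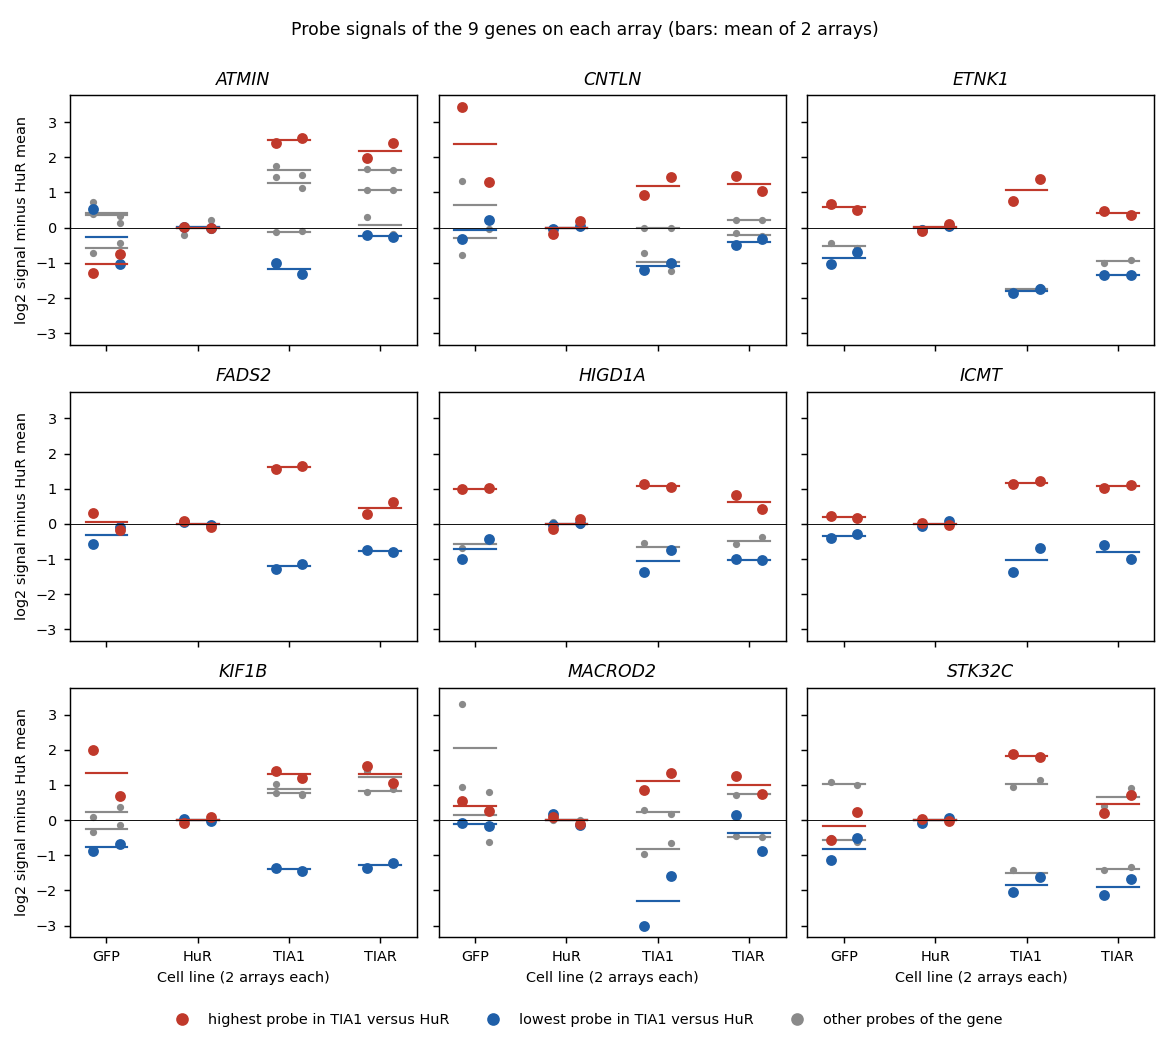
Log2 signal of every probe of the 9 genes on each of the 8 arrays, minus the mean of the 2 HuR arrays for the same probe; points are arrays, short bars are means of 2, red is the probe highest and blue the probe lowest in TIA1 versus HuR, and grey marks the other probes. Red lies above 0 and blue below 0 in TIA1 in every panel, by the choice of genes, while the GFP pair is more than 1 log2 unit apart at probes of ATMIN, CNTLN, KIF1B and MACROD2.

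A pair of members serves the cytoskeleton. KIF1B is a kinesin-3 motor whose forms share a motor domain and carry different tails and cargoes: variant 1 is the long form, which moves synaptic vesicle precursors, and variant 2 the short form, which moves mitochondria. All 3 probes for variant 2 (NM_183416) were higher in TIA1 and TIAR than in HuR, and the probe for variant 1 (NM_015074) was lower. The variant 2 probe at chr1:10364547-10364606 read -3.87 and -3.68 on the HuR arrays, -2.39 and -2.57 on the TIA1 arrays, -2.24 and -2.72 on the TIAR arrays and -1.80 and -3.09 on the GFP arrays. Both TIA1 and both TIAR arrays exceeded the HuR arrays, and the GFP arrays straddled them. The variant 1 probe, 76.7 kb downstream, read 2.62 and 2.56 on the HuR arrays, 1.23 and 1.15 on the TIA1 arrays, 1.23 and 1.37 on the TIAR arrays and 1.72 and 1.91 on the GFP arrays, highest in HuR, then GFP, with the TIA1 and TIAR arrays lowest. The remaining variant 2 probes, at chr1:10366262-10366321 and chr1:10368324-10368383, read -0.35 and -0.25 and 0.67 and 0.64 in HuR, 0.47 and 0.45 and 1.69 and 1.36 in TIA1 and 0.49 and 0.58 and 2.04 and 1.72 in TIAR.

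The 3 variant 2 probes of KIF1B, taken from the upstream end, changed by 1.30, 0.76 and 0.87 in TIA1 versus HuR. In TIAR versus HuR they changed by 1.29, 0.84 and 1.22. The variant 1 probe changed by -1.40 (SE 0.09) and -1.29 (SE 0.11). KIF1B was thus opposed in both lines, though in TIAR versus HuR it was not called both ways with the authors' normalised values, nor after leaving out either HuR array. Its rising value of 1.29 in TIAR was 0.40 with the authors' values and 0.52 with normexp and quantile normalisation.

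CNTLN, centlein, links the centrioles of a centrosome. Of its 2 probes for variant 2 (NM_001114395), the one at chr9:17301768-17301827 read -5.44 and -5.08 on the HuR arrays, -4.32 and -3.81 on the TIA1 arrays, -3.79 and -4.22 on the TIAR arrays and -1.82 and -3.96 on the GFP arrays, near the floor in HuR and 2.14 apart between the GFP arrays. The other, 2.89 kb upstream, was level: 0.09 and 0.37 in HuR and 0.22 and 0.21 in TIA1. Probes of one variant therefore gave different values. For variant 1 (NM_017738) the probe at chr9:17487004-17487063 read -2.33 and -2.25 on the HuR arrays, -3.49 and -3.29 on the TIA1 arrays, -2.79 and -2.60 on the TIAR arrays and -2.62 and -2.08 on the GFP arrays, lower in TIA1 than in the other lines. The last probe, at chr9:17503067-17503126, gave -2.41 and -2.33 in HuR and -3.08 and -3.60 in TIA1. In TIA1 versus HuR the values from upstream to downstream were -0.02, 1.19, -1.10 and -0.97, and in TIAR versus HuR 0.21, 1.25, -0.41 and -0.20. The rising probe was called in both, the variant 1 probes in TIAR in neither case. The rising value in TIA1 was 0.33 with the authors' values and 0.37 with normexp and quantile normalisation.

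MACROD2 is a macrodomain enzyme that removes ADP-ribose from proteins. Its gene is long, and its outermost probes lie 2050 kb apart. The probe that fell most, for NM_080676 at chr20:14066315-14066374, was not well above background in TIA1 cells, on either of their arrays. It read -4.07 and -4.38 on the HuR arrays, -7.23 and -5.82 on the TIA1 arrays, -4.08 and -5.10 on the TIAR arrays and -4.31 and -4.39 on the GFP arrays, and against the background floor of the TIA1 arrays it was at least 2.39-fold higher in HuR, at least 2.20-fold higher in GFP and at least 1.87-fold higher in TIAR. These bounds depend on the background correction: in TIA1 versus HuR the log2 change was -0.53 with normexp, -0.91 with normexp and quantile normalisation and -0.96 with the authors' values, all smaller than the bound and not called, and it was -1.59 without the first TIA1 array and -3.01 without the second. Against HuR it changed by -0.36 (SE 0.38) in TIAR. The rising probe, for the cDNA BC035876 at chr20:15966546-15966605, read -2.56 and -2.76 on the HuR arrays, -1.80 and -1.32 on the TIA1 arrays, -1.41 and -1.93 on the TIAR arrays and -2.13 and -2.40 on the GFP arrays, with both TIA1 and both TIAR arrays above HuR and GFP. It changed by 1.10 (SE 0.20) in TIA1 and by 0.99 (SE 0.21) in TIAR, the latter just under 2-fold. The second NM_080676 probe, at chr20:16033184-16033243, changed by -0.81 and -0.48. A probe that spans a splice junction, for ENST00000462552, changed by 0.22 and 0.73, and its GFP arrays read -0.76 and -3.25. None of these was called.

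ATMIN, a zinc-finger protein that binds the ATM kinase and drives transcription of DYNLL1, is the member whose opposition joined different chromosomes. Its 2 probes for NM_015251 lie on chromosome 16. The 3 probes that rose are assigned to ATMIN by name but are listed for the cDNA AK302556 and placed on chromosome 3, between 195668860 and 195672573. Of genes with 2 or more tested probes, 0.898% had probes on more than 1 chromosome. The strongest of the 3 read -3.16 and -3.20 on the HuR arrays, -0.78 and -0.62 on the TIA1 arrays, -1.20 and -0.78 on the TIAR arrays and -4.47 and -3.93 on the GFP arrays, and here TIA1 and TIAR exceeded HuR, which exceeded GFP. The other chromosome 3 probes read -2.92 and -3.04 and -4.52 and -4.10 in HuR against -1.22 and -1.49 and -2.87 and -3.19 in TIA1.

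All 3 chromosome 3 probes were called in both lines, with 2.48 (SE 0.10), 1.63 (SE 0.14) and 1.28 (SE 0.20) in TIA1 versus HuR and 2.19, 1.65 and 1.08 in TIAR versus HuR. The value of 2.48 was 1.82 with normexp and quantile normalisation and 1.83 with the authors' values, still called. On chromosome 16 the probe at chr16:81080715-81080774 read -1.28 and -1.29 on the HuR arrays, -2.30 and -2.61 on the TIA1 arrays, -1.50 and -1.55 on the TIAR arrays and -0.76 and -2.33 on the GFP arrays, with TIA1 below HuR and TIAR and the GFP arrays 1.57 apart. It changed by -1.17 (SE 0.14) and -0.24 (SE 0.09). The probe 2.34 kb upstream in NM_015251 changed by -0.11 and 0.06 and was called in neither. Without the chromosome 3 probes, ATMIN had no probe called higher.

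STK32C encodes a serine/threonine kinase of which little is known. Of its 4 probes 1 spans a junction of NM_173575, and the others lie together near the upstream end on the minus strand. The files describe 2 of these, including the one that rose most, as predicted non-coding transcripts of LOC100506057 (variants 1 and 2), although the gene name given is STK32C. The rising one, for ENST00000456004, read 1.18 and 1.12 on the HuR arrays, 3.03 and 2.93 on the TIA1 arrays, 1.35 and 1.86 on the TIAR arrays and 0.57 and 1.39 on the GFP arrays, and TIA1 alone stood apart from the other lines. The falling one, 6.14 kb downstream in ENST00000368619, read -1.61 and -1.47 on the HuR arrays, -3.59 and -3.17 on the TIA1 arrays, -3.68 and -3.21 on the TIAR arrays and -2.67 and -2.04 on the GFP arrays. Both TIA1 and both TIAR arrays lay below HuR and GFP. A neighbouring probe on ENST00000368619, at chr10:134137572-134137631, separated the lines likewise, -0.24 and -0.33 in HuR, -1.69 and -1.88 in TIA1 and -1.71 and -1.62 in TIAR. The NM_173575 junction probe read -3.17 and -3.22 in HuR, -2.25 and -2.05 in TIA1, -2.80 and -2.29 in TIAR and -2.11 and -2.19 in GFP, lowest in HuR.

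In TIA1 versus HuR the STK32C probes changed by 1.83 (SE 0.10) for ENST00000456004, -1.84 (SE 0.17) and -1.50 (SE 0.11) for ENST00000368619, and 1.04 (SE 0.11) for NM_173575. The 4 values in TIAR versus HuR, in that order, were 0.45, -1.91, -1.38 and 0.64. The ENST00000368619 probes were called in both lines. The ENST00000456004 probe was the other one called in TIAR versus TIA1, lower by 2.59-fold in TIAR.

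The ratio of the opposed probes within an array does not change when the whole array is scaled by 1 factor. It does depend on background correction and quantile normalisation. For CNTLN, the rising and falling changes in TIA1 versus HuR were 1.19 and -1.10, but 0.33 and -0.83 with the authors' values. The ratios below are those of the main processing only. Taken relative to its HuR mean, the log2 ratio of the rising to the falling probe was higher on both TIAR arrays than on both HuR arrays in 9 of 9 genes, and lower on both TIAR arrays than on both TIA1 arrays in 6. The probes were chosen to give a low ratio on these HuR arrays and a high one on these TIA1 arrays, which by itself tends to place another line between them, so nothing is read from these 2 counts. The mean TIAR ratio ran from 1.23 for FADS2 to 2.58 for KIF1B, and the mean TIA1 ratio from 2.14 for HIGD1A to 3.67 for STK32C. KIF1B had nearly equal ratios in both lines, 2.70 and 2.58, whereas FADS2 had 2.82 and 1.23. The MACROD2 ratio in TIA1 is given only as at least 2.36, because its falling probe was not well above background there. That bound holds for the main processing only. Against HuR the falling probe changed by -0.53 with normexp and by -0.96 with the authors' values.

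The GFP ratios are given as a description, since the choice of a low ratio in HuR tends to place any other line above it, and limma called 0 probes in HuR versus GFP. Both GFP arrays had a higher ratio than both HuR arrays in 7 of 9 genes, the exceptions being ATMIN and FADS2. In 4 genes, ETNK1, ICMT, MACROD2 and STK32C, both GFP arrays lay between HuR and TIA1. In CNTLN, HIGD1A and KIF1B the GFP values reached those of TIA1, with GFP means of 2.43, 1.71 and 2.10. For CNTLN and KIF1B the first GFP array alone was above the TIA1 arrays, at 3.77 and 2.85, and the second was below them, at 1.08 and 1.36.

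TIAR versus GFP shares no array with TIA1 versus HuR, and so stands apart from the choice of genes. The mean ratio was higher in TIAR than in GFP in 7 of 9 genes. Both TIAR arrays exceeded both GFP arrays in 5, namely ATMIN, FADS2, ICMT, MACROD2 and STK32C. Such counts were not made over other genes. The TIAR and GFP arrays also lay in different rows of the slide. Nothing is therefore read from either count. An exact two-sided permutation test of 2 arrays against 2 cannot give a p below 0.333, so no gene was tested singly. Across all probes limma called 0% in either direction in TIAR versus GFP, 0% in TIA1 versus GFP and 0% in HuR versus GFP, and accordingly none of the 31. At an unadjusted p under 0.05 limma had 7 of the 31 in TIAR versus GFP, where 16.4% of all probes were. It had 16 in TIA1 versus GFP, where 21.6% were, and 11 in HuR versus GFP, where 17.2% were. The last 2 comparisons use the TIA1 or the HuR arrays on which the genes were chosen. That choice favours high counts there, so nothing is read from those 2. In TIAR versus GFP the largest values on the log2 scale were 3.21 (SE 0.31) for the ATMIN-named probe on chromosome 3 and 1.48 (SE 0.23) for the most downstream variant 2 probe of KIF1B.

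**Figure D3:**
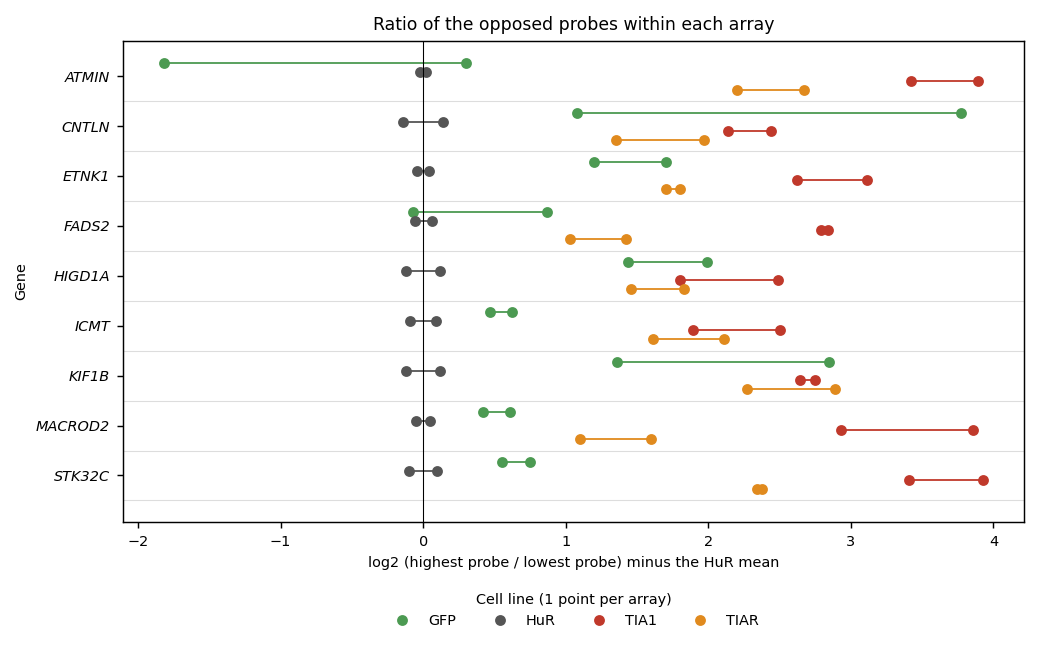
Log2 ratio of the probe highest to the probe lowest in TIA1 versus HuR within each array, minus the HuR mean, for the 9 genes; each point is 1 array and lines join the 2 arrays of a cell line. HuR arrays lie at 0 within 0.14, all TIAR arrays lie above them, from 1.03 to 2.89, and the GFP arrays range from -1.82 for ATMIN to 3.77 for CNTLN, while the TIA1 points of MACROD2 rest on a falling probe not well above background.

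The position of the opposed probes along the gene was another feature that the choice did not use. In 8 genes, all but ATMIN, both lie on 1 chromosome and strand, from 2.14 kb apart in HIGD1A to 1900 kb in MACROD2. The rising probe was upstream in 6 (CNTLN, ETNK1, FADS2, ICMT, KIF1B and STK32C) and downstream in 2 (HIGD1A and MACROD2). In STK32C the second rising probe, for NM_173575, lies 122 kb downstream, so its fallen probes were flanked by risen ones. Among the 8 other genes called both ways the rising probe was upstream in 7. Over 5252 genes with 2 or more tested probes on 1 chromosome and strand, the most upstream probe had the higher change in 53.0%, and over the 78 of these, members left out, whose outermost probes differed by 4-fold or more it had the higher change in 61.5%. By that comparison of the outermost probes, 7 of the 8 members had the higher change upstream. The reading direction came from the order of the deposited coordinates, which gave the RefSeq strand for 99.3% of 20277 probes that could be compared.

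**Figure D4:**
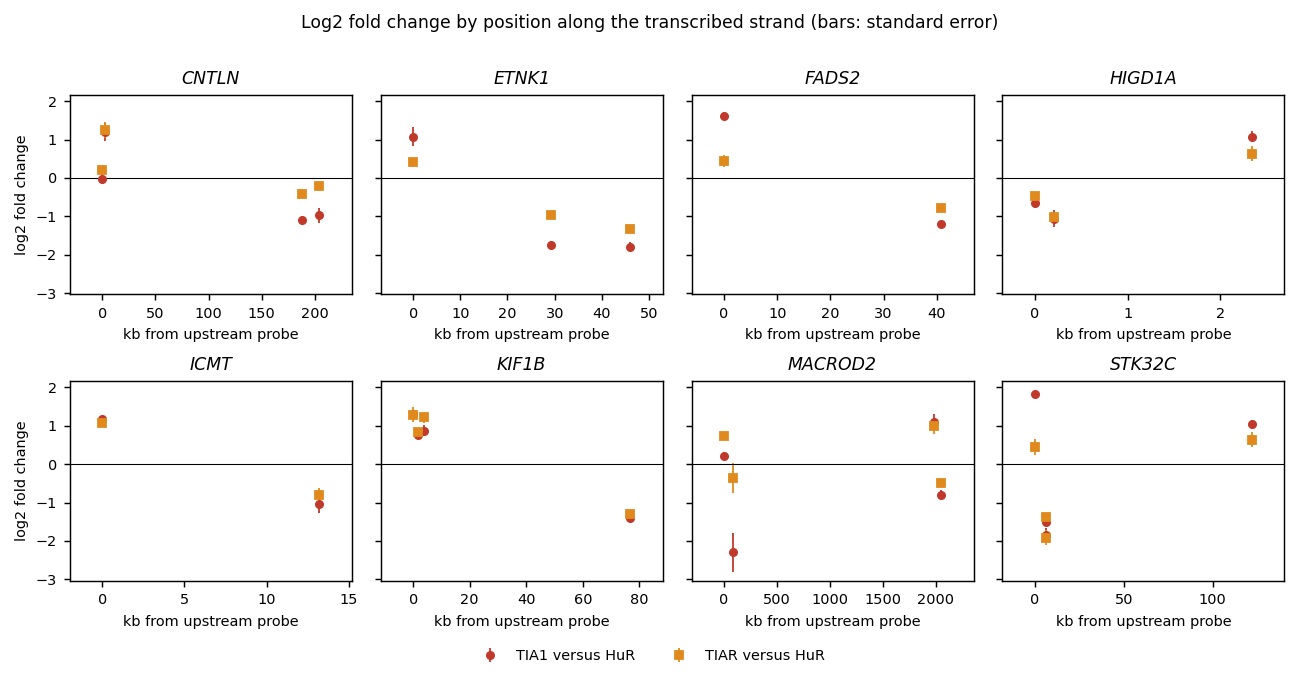
Log2 fold change against HuR of each probe in TIA1 (circles) and TIAR (squares) by its distance in kb along the transcribed strand from the gene's most upstream probe, with standard errors as bars, for the 8 genes whose probes lie on 1 chromosome; the horizontal scale differs between panels. Values go from above 0 upstream to below 0 downstream in CNTLN, ETNK1, FADS2, ICMT and KIF1B, in both lines, apart from the most upstream CNTLN probe at -0.02 in TIA1.

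Opposed probes also differed in the transcripts listed for them. The highest and the lowest probe shared a listed transcript in 1 of the 9 genes, HIGD1A, and in 3 of the 8 other genes called both ways, against 71.9% of 5359 genes with 2 or more tested probes. In ATMIN the highest and the lowest probe lie on different chromosomes. The files list at most 4 transcripts a probe, so a transcript missing from a list may still contain the probe. Of the 31 probes 21 carry a RefSeq accession, and all 21 matched the gene of the same name in RefSeq (GRCh38.p14).

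Of 41 genes that work beside the 9, 35 were tested, through 55 probes in each comparison with HuR. Of the 15 tested by 2 or more probes none had probes called both ways, from which nothing is read, because 0.317% of all such genes did in TIA1 versus HuR and 0.13% in TIAR versus HuR. In TIA1 versus HuR, where 8.51% of all tested probes were called higher and 4.9% lower, 1 partner was called, lower: EPT1, the ethanolaminephosphotransferase that completes the pathway ETNK1 begins. EPT1 read 0.68 and 1.28 on the HuR arrays and -0.62 and -0.19 on the TIA1 arrays, a change of -1.38 (SE 0.27, limma adjusted p = 0.02), and in TIAR versus HuR it changed by -1.15 (SE 0.27, limma adjusted p = 0.042). No other member of the phosphatidylethanolamine group of 7 was called, including ETNK2. TIAR versus HuR, with 7.07% of all tested probes called higher and 3% lower, called 2 further partners, both higher. KIF16B, another kinesin-3 motor, rose by 1.13 (SE 0.10, limma adjusted p = 0.0068) through a probe for NM_001199866. Its brighter probe, for NM_024704, rose by just under 2-fold and was not called. PARP14, a macrodomain ADP-ribosyltransferase, rose by 1.04 (SE 0.11, limma adjusted p = 0.0088). All 6 fatty acid desaturases and elongases tested beside FADS2, all 5 prenylation enzymes beside ICMT, the 4 partners of ATMIN and the 4 centriole proteins beside CNTLN were without a call in both comparisons. Of the 4 HIG1 domain genes beside HIGD1A 1 was bright enough to test, and of the 2 kinases beside STK32C 0 were. Without either HuR array TIAR versus HuR called 0 partners in place of 3, and without the first TIA1 array TIA1 versus HuR called 3 in place of 1. Over the 35 tested partners, each by its brightest tested probe, the median change was -0.11 in TIA1 versus HuR and -0.02 in TIAR versus HuR. Over all tested probes, of any brightness, it was 0.08 and 0.05.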

How the data were processed

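The 8 arrays were one-colour Agilent human gene expression arrays (8x60K v2 by the file headers, although the labels' hybridisation text names a rat design). The deposited files hold the scanner's processed signal, an intensity that Feature Extraction 10.7.3.1 had already corrected for background, per the file headers, together with mean and local background intensities. A second table holds the authors' normalised log2 values of the same arrays, used as an alternative, and limma is the tool named in the submitters' processing notes. Probe coordinates are hg19.

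Spots without a control role or an outlier mark were averaged by probe, divided by the array's 75th percentile and taken to log2. A probe entered a test when the scanner called it well above background on the full pair of arrays from either line compared, and it was tested with limma 3.58.1 (R 4.3.3), on the 4 arrays of each comparison, with Benjamini-Hochberg adjustment over all tested probes. No p-value is given for the 31 probes' own changes. The genes, the 41 partner genes and the markers were chosen with earlier results of these data known. Named in full were the probes of each gene with the highest and the lowest change in TIA1 versus HuR and, for partners, the called probes. On simulated data 147 of 200 changed probes were recovered in TIA1 versus HuR with 4 false calls, and 155 of 200 with 6 false calls in TIAR versus HuR. Only those 200 probes were changed, all upward and by more than many of the 31 probes, with all others equal between the lines. In the real TIA1 versus HuR data 52.4% of probes had an unadjusted limma p under 0.05. The simulated figures are thus no recovery or false-call rates of the calls reported here. Tables were made with Python 3.11.15. The sequence of 1 probe is not reported here. Exon and UTR annotation on hg19 was not used here, and the precision is limited by the 2 arrays per line.

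Alternatives were quantile normalisation, normexp background correction (offset 50), both together, the authors' values, other filters, a fit of all 8 arrays, the replicate number as a block, each array left out, and the paired t-test of the study's methods.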

Additional observations from a re-analysis of the deposited data

Results flagged for a closer look

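The changes of TIA1 and TIAR against HuR differed for 2 of the 31 probes by limma's test of TIAR versus TIA1 itself. The STK32C probe for ENST00000456004 was lower in TIAR than in TIA1 by a log2 change of -1.37, and the FADS2 probe for ENST00000517839 by -1.15. Both are probes on which the genes were chosen, for high values in TIA1, so the values are a description. Neither was called with normexp or the authors' values, with the replicate block, or after leaving out any 1 of the 4 arrays.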

How the results depend on the processing

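The direction of the 20 probe changes described as highest or lowest held under every alternative run. Nothing is read from that, because the probes were chosen for their directions in TIA1 versus HuR. The filters, the fit of all 8 arrays, the block and the t-test also leave the log2 change itself as it is. All 20 stayed called with the replicate block, 19 with all 4 arrays above background (MACROD2's lowest probe could not be tested), 16 with quantile normalisation, 16 with all 8 arrays in one fit, 13 with no filter, 10 with normexp, 10 with normexp and quantile, 9 with the authors' values and 9 by the methods' t-test at an unadjusted p. Member genes called both ways in TIA1 versus HuR numbered 9, against 5 with quantile normalisation, 3 with normexp, 3 with normexp and quantile, 3 with the authors' values, 4 with no filter and 3 to 7 with 1 array left out. The 23 member probes called became 12 with normexp, 12 with both, 12 with the authors' values and 13 to 21 with 1 array left out. In TIAR versus HuR the 12 called became 6 with the authors' values and 0 to 14 with 1 array left out, and the 1 gene called both ways, KIF1B, became 0 with the authors' values and 0 to 1 with 1 array left out. Against GFP, with 0 called, the fit of all 8 arrays called 8 in TIA1, 3 in TIAR and 2 in HuR, and leaving out 1 array gave 0 to 11, 0 to 8 and 0 to 8. The 2 called in TIAR versus TIA1 became 0 with normexp, normexp and quantile, the authors' values, no filter, all 8 arrays in one fit, the replicate block and every array left out. The replicate numbers did not pair the samples (correlations of deviations from -0.09 to 0.184), so the block is given only as an alternative. Partner genes called were 1 in TIA1 versus HuR, 0 with no filter, 1 to 3 with 1 array left out, and 3 in TIAR versus HuR, 1 with normexp and quantile, 1 with all 8 arrays, 0 to 3 with 1 array left out. Against GFP partners numbered 0 to 5, 0 to 4 and 0 to 4 with 1 array left out, and 1 in TIAR with all 8 arrays. The methods' t-test at an unadjusted p called 11, 6, 1, 3, 1 and 0 member probes in TIA1 versus HuR, TIAR versus HuR, TIA1, TIAR and HuR versus GFP and TIAR versus TIA1, 2 and 0 genes both ways against HuR and 1 partner in each comparison with HuR, and 0 of each after adjustment. The causes were not tested.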
